A study of Mus musculus with 9 samples.

Results

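Hearts of 3 mice taken 28 d after myocardial infarction were compared with hearts of 3 mice taken 7 d after it, by bulk RNA sequencing. The infarct groups supply 6 of the 9 libraries of the series, and were chosen by the column names of the deposited count matrix, not by any measured value. All 9 mice were male C57BL/6JR animals listed at an age of 8 weeks, the same for both infarct groups. The infarct groups therefore differed in age either at surgery or at harvest, and age and time after infarction cannot be fully told apart. In both infarct groups surgeons ligated the left anterior descending coronary artery, and in the 3 sham mice the same chest operation was done without the ligature. Sham levels are given beside the infarct levels as a reference and were not part of the test. The labels name no transgene and, besides isoflurane anaesthesia, no drug. The labels name the tissue only as heart. They give neither the part of the heart that was taken, nor the time of day of harvest, nor the day on which sham hearts were taken. Each mouse was sampled once, so "rose" and "fell" below mean higher or lower in the 28 d group than in the 7 d group, past the test's threshold. That the replicates are separate mice comes from the design text.

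When the blood supply of part of the left ventricle is lost, cardiomyocytes die and monocytes and macrophages enter to clear them. Fibroblasts then divide, become activated and lay down a collagen scar, after which the cellular infiltrate thins out and the scar matures. Surviving heart muscle is loaded more heavily, and is known to turn on part of the fetal gene programme, such as natriuretic peptides and slow myosin, and to lower genes of mitochondrial metabolism. The comparison of 28 d with 7 d sets the maturing scar and remodelled muscle beside the proliferative phase of healing.

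Totals lay between 18355720 and 19238101 counts per library at 7 d, 15300344 and 15770389 at 28 d and 12351525 and 13629120 in sham hearts. Levels below are given as CPM, counts scaled to a common library total, which compare 1 gene between libraries but not different genes with each other. Heart muscle genes were present in all 6 infarct libraries. Of the defining atrial markers Myl7 and Sln were at most 0.728 CPM in infarct libraries and Myl4 was at 4.81 to 9.01 CPM. Of those of fast skeletal muscle Myh1 and Myh4 were at most 1.02 CPM, and Tnnt3 was at 5.75 to 6.96 CPM at 7 d and 1.14 to 1.26 CPM at 28 d. The red cell gene Alas2 was at 4.2 to 16.8 CPM in infarct libraries and 22.9 to 25.8 CPM in sham hearts, whereas Hba-a1, which has a near-identical copy, was listed at 0 in all 9 libraries and so does not speak to red cells. Some libraries stood apart from the others of their group. Adipoq, the adipocyte hormone adiponectin, was at 0.563, 3.39 and 239 CPM at 7 d and 139, 0.529 and 126 CPM at 28 d, so that 1 library at 7 d and 2 at 28 d were rich in it. Of the 14239 genes tested, 88 were over 4 times higher in 28 d replicate 3 than in either other 28 d library (at 5 CPM or more, 0.5 CPM added to the others), against 6 genes for replicate 1 and 0 for replicate 2. At 7 d the same count was 56 genes for replicate 3, 1 for replicate 1 and 0 for replicate 2. Among mesothelial genes, Upk3b stood at 5.78, 17.2 and 51.3 CPM at 7 d and 46.7, 56.1 and 300.03 CPM at 28 d and Wt1 at 7.93, 10.4 and 14.1 CPM at 7 d and 12.3, 12.1 and 109.6 CPM at 28 d. For each list below the counts without 28 d replicate 3, and without the 3 Adipoq-rich libraries, are given where they differ from the full count by more than 1.5 times and by at least 2 genes. Leaving out those 3 keeps 2 libraries at 7 d and 1 at 28 d, whose spread is then assumed to equal that at 7 d. The part of these cells in other differences was not tested. Sham libraries were far more alike than infarct libraries, with a biological coefficient of variation of 2.73%, against 17.0% at 7 d and 24.1% at 28 d.

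**Figure D1:**
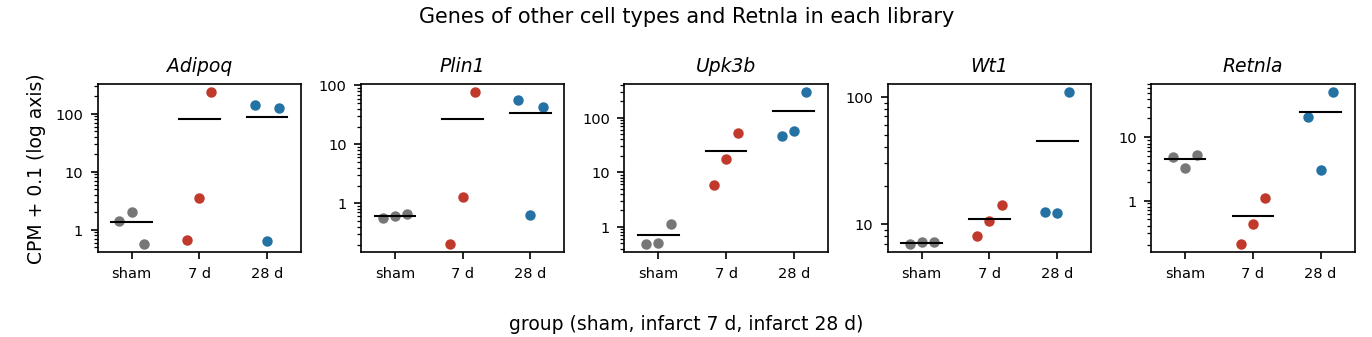
CPM + 0.1 on a log axis for 5 genes in each library of the sham, infarct 7 d and infarct 28 d groups (3 points a group, bars are group means). Adipoq and Plin1 were high in 1 library at 7 d and 2 libraries at 28 d, Wt1 was highest in 28 d replicate 3, and Retnla was higher in every 28 d library than in every 7 d library.

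Nearly equal numbers of genes rose and fell between the infarct groups. Of 14239 genes tested, 3131 were higher at 28 d (22.0%) and 3550 lower (24.9%), together 46.9%, by edgeR's quasi-likelihood test at a Benjamini-Hochberg adjusted p under 0.05. Groups did not overlap for 59.6% of all tested genes. A change of at least 4-fold was seen for 161 of the genes that rose and 460 of those that fell. The median log2 fold change of all tested genes was -0.016, and standard errors follow each log2 fold change below after the sign ±. Of protein-coding genes 47.4% were called, and of 466 long non-coding RNA genes 36.5%. Principal component 1 (68.5% of variance) separated the times, and component 2 (15.6%) set replicate 3 of each time apart from the others. For 67.3% of tested genes the 28 d mean lay between the 7 d and the sham mean. In whole tissue, fewer cells of a type and less RNA per cell cannot be told apart.

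**Figure D2:**
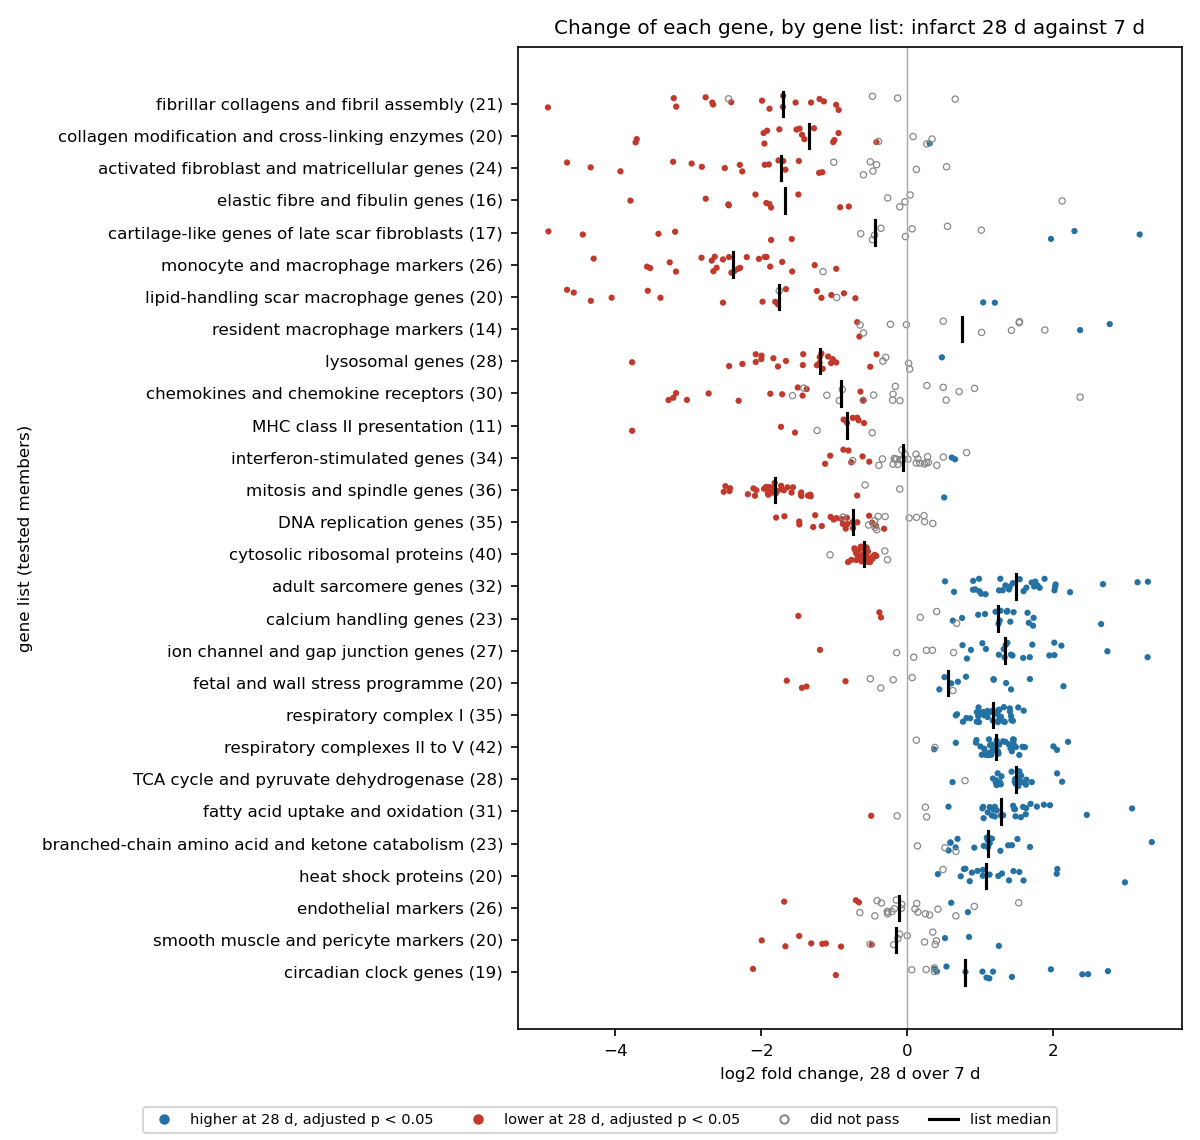
Log2 fold change of 28 d over 7 d (x axis) for every tested member of 28 gene lists (rows, number tested in parentheses). Points are genes, coloured if higher or lower at an adjusted p under 0.05, and black bars are list medians, which ran from -2.39 for monocyte and macrophage markers to 1.49 for adult sarcomere genes.

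The largest falls included genes of secreted proteins and of solute transport, and the neuropeptide gene Npy. Cemip, which encodes a hyaluronan-degrading protein (chromosome 7, 83932857-84086693), stood at 170.2, 308 and 143 CPM at 7 d and 3.19, 4.43 and 3.03 CPM at 28 d and fell 58.2-fold (log2 fold change -5.86 ± 0.37, edgeR adjusted p = 8.34e-05). C1qtnf3, a secreted protein of mesenchymal cells, went from 103, 179.7 and 68.4 CPM to 1.85, 2.78 and 2.26 CPM, a 50.7-fold fall. Adamts16, a secreted metalloproteinase, was at 22.8, 21.3 and 11.4 CPM at 7 d and 0.497, 0.0662 and 0.535 CPM at 28 d. These 28 d levels came close to those of sham hearts, where Cemip was at 1.43, 1.81 and 2.12 CPM and Adamts16 at 0.0951, 0.201 and 0.277 CPM. Stra6l, related to the retinol-binding protein receptor, fell from 5.17, 9.68 and 9.86 CPM to 0.213, 0.132 and 0 CPM (log2 fold change -6.14 ± 0.61). Slc1a6, a glutamate transporter, fell 26.6-fold from 15.6, 17.9 and 12.4 CPM. Npy, the neuropeptide of sympathetic nerves, was read at 6.7, 3.5 and 6.95 CPM at 7 d and 0, 0.0662 and 0.238 CPM at 28 d and was 0 in all 3 sham libraries. All 3 libraries of 1 time lay above all 3 of the other for these genes because the rule that picked them required it.

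The largest rises included muscle genes and genes of other cells, and their 28 d levels often differed several-fold between mice. Retnla, a marker of alternatively activated macrophages that is also made by adipocytes (chromosome 16, 48842609-48844461), stood at 0.102, 0.323 and 1.01 CPM at 7 d and 20.7, 2.98 and 53 CPM at 28 d and rose 53.1-fold (log2 fold change 5.73 ± 1.17, edgeR adjusted p = 0.00673). Its sham level was 4.85, 3.22 and 5.07 CPM, and its 28 d order (replicate 3, then 1, then 2) put the Adipoq-rich libraries first. Bdh1, a mitochondrial enzyme of ketone body use (chromosome 16, 31422297-31458901), stood at 12.9, 6.67 and 9.01 CPM at 7 d and 141, 85.4 and 65.9 CPM at 28 d and rose 10.2-fold (log2 fold change 3.35 ± 0.35, edgeR adjusted p = 0.000547), to a 28 d mean of 98.9% of the sham mean. Ache, acetylcholinesterase, was at 1.54, 1.08 and 1.43 CPM at 7 d and 13.6, 18.9 and 15.1 CPM at 28 d, above its sham level of 3.04, 1.81 and 1.94 CPM in every 28 d library. Lrtm1, a leucine-rich repeat protein of muscle, rose 13.4-fold but unevenly, with 385, 71.7 and 77.8 CPM in the 28 d libraries against 13.9, 10.6 and 15.5 CPM at 7 d. Mylk4, a myosin light chain kinase, had the same uneven pattern, at 140.1, 35.2 and 29.9 CPM against 5.73, 8.5 and 3.92 CPM. Inmt, a methyltransferase, rose from 0.205, 0.161 and 1.06 CPM to 7.03, 5.23 and 15.6 CPM.

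Genes of the collagen scar were lower at 28 d in nearly every class. Of 21 tested genes for fibrillar collagens and fibril assembly 0 rose and 17 fell, with a median log2 fold change of -1.70. Col1a1, a chain of the main collagen of scar (chromosome 11, 94936224-94953042), stood at 14232, 13792 and 10577 CPM at 7 d and 1091, 1441 and 1675 CPM at 28 d and fell 9.18-fold (log2 fold change -3.20 ± 0.22, edgeR adjusted p = 0.000119). Col3a1, its partner in young scar, stood at 16359, 15242 and 12973 CPM at 7 d and 1894, 2720.4 and 3769 CPM at 28 d and fell 5.32-fold (log2 fold change -2.41 ± 0.27, edgeR adjusted p = 0.000697). All 28 d libraries remained above sham, where Col1a1 was at 381, 378 and 361 CPM and Col3a1 at 649, 611 and 622 CPM. Fn1, fibronectin, fell 8.96-fold to 704, 863 and 1545 CPM. Col11a1, a minor fibrillar collagen best known from cartilage, fell furthest, from 229, 243 and 98.9 CPM to 5.96, 9.07 and 3.86 CPM. The members that did not pass were Col24a1 and 3 small proteoglycans that coat collagen fibrils, Dcn, Fmod and Prelp. Fmod, fibromodulin, was at 334, 447 and 215 CPM at 7 d and 193, 301 and 222 CPM at 28 d, overlapping between times, against 5.99, 5.23 and 4.8 CPM in sham hearts. Dcn, decorin, was at 1341, 1584 and 1778 CPM at 7 d and 1505, 1792 and 4127 CPM at 28 d, with its highest value in replicate 3 of 28 d.

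Most enzymes that modify and cross-link collagen fell as well. Of 20 tested, 15 fell and 1 rose, with a median log2 fold change of -1.34. Lox, lysyl oxidase, which starts cross-linking (chromosome 18, 52516060-52529867), stood at 1268, 1594 and 1172 CPM at 7 d and 89.9, 118 and 98.4 CPM at 28 d and fell 13.2-fold (log2 fold change -3.72 ± 0.18, edgeR adjusted p = 5.29e-05). P4ha3, a collagen prolyl hydroxylase, went from 72.3, 77.3 and 50.5 CPM to 5.32, 6.62 and 3.45 CPM. The single member called higher was P4ha1, another prolyl hydroxylase, at 129, 136 and 118 CPM at 7 d and 157, 149.5 and 167 CPM at 28 d (log2 fold change 0.31 ± 0.10). That call was lost when any 1 of the 6 libraries was left out. Among elastic fibre and fibulin genes 11 of 16 fell and 0 rose (median -1.68). Eln, elastin, stood at 3768, 4293 and 4245 CPM at 7 d and 242, 404 and 243 CPM at 28 d, a 13.8-fold fall (log2 fold change -3.79 ± 0.25, edgeR adjusted p = 9.38e-05), and remained above its sham level of 104, 123 and 100.1 CPM. Fbn1, fibrillin-1, fell 5.44-fold and Fbn2, a fibrillin of developing tissue, 6.77-fold.

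Markers of activated fibroblasts and matricellular proteins fell in 17 of 24 tested genes and rose in 0, with a median log2 fold change of -1.73. Postn, periostin, the marker of the activated fibroblast (chromosome 3, 54359267-54391041), stood at 5619, 6329 and 4663 CPM at 7 d and 645, 951 and 549 CPM at 28 d and fell 7.74-fold (log2 fold change -2.95 ± 0.25, edgeR adjusted p = 0.000216). Cthrc1, a secreted protein of the scar fibroblast, fell 20.2-fold, from 414, 449.7 and 379 CPM to 17.2, 26.6 and 17.8 CPM. Tnc, tenascin-C, an early matrix protein of wounds, fell 15.2-fold to 18.7, 21.8 and 22.7 CPM. Spp1, osteopontin, made by macrophages as well as fibroblasts, fell 25.3-fold, from 471, 384 and 529 CPM to 12.8, 24 and 17.8 CPM. Acta2, the smooth muscle actin of myofibroblasts and vessels, stood at 877, 820.4 and 705 CPM at 7 d and 342, 387 and 345 CPM at 28 d and fell 2.24-fold (log2 fold change -1.16 ± 0.13, edgeR adjusted p = 0.000666). Fap, a surface protease of activated fibroblasts, fell 3.87-fold to 9.02, 8.6 and 9.44 CPM, against 7.32, 5.23 and 5.63 CPM in sham hearts.

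Cartilage-like genes, known as a feature of late scar fibroblasts, were called in both directions. Their shares, 35.3% lower and 17.6% higher, stood beside 24.9% and 22.0% of all tested genes. Of 17 tested, 6 fell and 3 rose, the latter 5 without the Adipoq-rich libraries. Comp, cartilage oligomeric matrix protein, which marks matured scar fibroblasts (chromosome 8, 70373548-70382066), stood at 890.2, 833 and 589 CPM at 7 d and 471, 839.7 and 385 CPM at 28 d, a difference that missed the threshold (log2 fold change -0.45 ± 0.31, edgeR adjusted p = 0.265). The highest 28 d library lay within the 7 d range and all 28 d libraries were far above the sham level of 15.1, 10.8 and 12.6 CPM. Without 28 d replicate 2 Comp was called lower, with a log2 fold change of -0.82 (edgeR adjusted p = 0.0315). Col2a1, the main collagen of cartilage, fell 30.2-fold from 52.1, 42.6 and 25.3 CPM to 1.21, 2.58 and 0.238 CPM, and Acan, aggrecan, 21.8-fold. Matn4, a matrilin, fell 10.6-fold. In the other direction, Prg4, the joint lubricant lubricin, rose from 7.32, 6.45 and 6.89 CPM to 24.9, 45.9 and 30.5 CPM (log2 fold change 2.29 ± 0.23, edgeR adjusted p = 0.000467). Cytl1, a secreted cytokine-like protein, rose from 1.89, 2.53 and 2.39 CPM to 18, 30.4 and 13.7 CPM (log2 fold change 3.19 ± 0.33, edgeR adjusted p = 0.00049). The sham levels of these 2 genes lay between their 7 d and 28 d means.

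Resting fibroblast markers had no common direction, with 2 of 20 higher (10%) and 4 lower (20%) and a median of 0.26. Of all tested genes 22.0% were higher and 24.9% lower. The count of higher members was 5 without 7 d replicate 3, 4 without 28 d replicate 3 and 7 without the Adipoq-rich libraries, and that of lower members 2 without 7 d replicate 1 or 3 and 7 without 28 d replicate 3. Gsn, gelsolin, an actin-severing protein, stood at 706, 829 and 1446 CPM at 7 d and 2752, 3079 and 2366 CPM at 28 d and rose 2.75-fold (log2 fold change 1.46 ± 0.28, edgeR adjusted p = 0.00515). C7, a complement component made by fibroblasts, rose 8.56-fold to 41.7, 44.1 and 79.4 CPM. Tcf21, a transcription factor of cardiac fibroblast precursors, fell 4.51-fold, from 69.1, 79.8 and 87.6 CPM to 16.9, 26.6 and 9.03 CPM.

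In the list of matrix proteases and inhibitors 12 of 25 genes fell and 3 rose. Mmp12, the macrophage elastase, stood at 60.1, 65.8 and 88.2 CPM at 7 d and 3.9, 3.51 and 3.21 CPM at 28 d and fell 20.2-fold (log2 fold change -4.33 ± 0.19, edgeR adjusted p = 4.81e-05). Mmp14, a membrane-bound collagenase, fell 7.33-fold and Mmp2, a gelatinase of fibroblasts, 2.64-fold to 389.99, 478 and 389 CPM. Timp1, a protease inhibitor, fell 3.27-fold. The list count of higher members was 1 without 7 d replicate 1 or without 7 d replicate 2. Of 20 basement membrane genes 10 fell and 4 rose. Col4a1 and Col4a2, the chains of the common basement membrane network, fell 2.24-fold and 2.28-fold, Col4a1 from 2713, 2839 and 2972 CPM to 1367, 1482 and 952 CPM. Col4a3, a chain of specialised basement membranes, was higher at 28 d, 27.2, 25.5 and 14.5 CPM against 5.73, 11.8 and 8.16 CPM, although the count of higher members was 2 when any of 7 d replicates 1 and 3 or 28 d replicates 1 and 2 was left out.

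Lists of secreted signals and their antagonists held genes that fell and genes that rose. In the TGF-beta, activin and BMP list 9 of 26 genes fell (34.6%, against 24.9% of all tested genes) and 3 rose, the latter 5 without 7 d replicate 3 or without the Adipoq-rich libraries. Tgfb3, a ligand, stood at 439.9, 554 and 395 CPM at 7 d and 122, 137 and 183 CPM at 28 d and fell 3.14-fold (log2 fold change -1.65 ± 0.20, edgeR adjusted p = 0.000867). Fstl1, a secreted follistatin-like protein, fell 4.27-fold from 3097, 3232 and 2704 CPM. Bmp2, a ligand, rose from 7.88, 6.24 and 7.37 CPM to 16, 20.2 and 20.7 CPM (log2 fold change 1.40 ± 0.16, edgeR adjusted p = 0.000708), and stood at 2.38, 1.61 and 2.49 CPM in sham hearts. In the Wnt list 7 of 23 fell (30.4%) and 3 rose, the latter 1 without 7 d replicate 1 or 2 and 5 without the Adipoq-rich libraries. The secreted Wnt antagonist Sfrp1 fell 5.65-fold, Sfrp2 3.24-fold and Frzb 3.5-fold. Sfrp1 stood at 1061, 1013 and 747 CPM at 7 d and 169, 216 and 114 CPM at 28 d. Wif1, another secreted Wnt inhibitor, rose from 0.665, 0.914 and 0.689 CPM to 5.11, 5.89 and 2.49 CPM (log2 fold change 2.56 ± 0.38). Of 12 genes for insulin-like growth factors and binding proteins 5 fell and 2 rose, the former 3 without 28 d replicate 1 or 2 and the latter 0 without 7 d replicate 1 or 2. Igfbp7 fell from 1534, 1406 and 1616 CPM to 722, 867 and 664 CPM.

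Macrophage genes fell together. Of 26 monocyte and macrophage markers 25 fell and 0 rose, with a median log2 fold change of -2.39, and the summed level went from between 6930 and 8958 CPM at 7 d to between 1223 and 1695 CPM at 28 d. Sham libraries summed to between 693 and 768 CPM. Cd68, a lysosomal membrane protein of macrophages (chromosome 11, 69664213-69666170), stood at 257, 292 and 331 CPM at 7 d and 27.2, 30.5 and 34.5 CPM at 28 d and fell 9.53-fold (log2 fold change -3.25 ± 0.15, edgeR adjusted p = 5.07e-05). Adgre1, the F4/80 antigen, fell 6.22-fold to 41.9, 51.2 and 39.1 CPM, and Csf1r, the receptor that macrophages need to survive, 3.86-fold to 123, 121 and 154 CPM. Ccr2, the chemokine receptor of recruited monocytes, fell 3.28-fold, from 60.1, 63.9 and 64.8 CPM to 16.5, 20.8 and 20.3 CPM. Itgam, the integrin CD11b, was the member that did not pass, at 76.6, 75.7 and 84.5 CPM at 7 d and 21.3, 18.6 and 66.3 CPM at 28 d (log2 fold change -1.15 ± 0.46, edgeR adjusted p = 0.0737). Its highest 28 d value was in replicate 3, without which it was called lower with a log2 fold change of -1.98 (edgeR adjusted p = 5.6e-05).

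Genes of the lipid-laden, matrix-digesting macrophages of scars fell in 16 of 20 cases and rose in 2. Trem2, a lipid-sensing receptor (chromosome 17, 48346401-48352276), stood at 144, 158 and 180.3 CPM at 7 d and 10.2, 16.5 and 14.4 CPM at 28 d and fell 11.7-fold (log2 fold change -3.55 ± 0.20, edgeR adjusted p = 6.22e-05). Gpnmb, a glycoprotein of lipid-laden macrophages, went from 612, 798 and 969.99 CPM to 25.1, 37.3 and 37.9 CPM, a 23.7-fold fall. Lgals3, galectin-3, fell less, 2.05-fold to 192, 252 and 257 CPM, against 6.66, 9.65 and 10.3 CPM in sham hearts. The 2 members called higher, Lpl and Cd36, encode a lipase and a fatty acid transporter that heart muscle and capillaries also make. Neither call held without 7 d replicate 1 or 2, where Lpl had log2 fold changes of 1.17 and 1.11 (edgeR adjusted p = 0.0701 and 0.0736) and Cd36 of 0.96 and 0.97 (edgeR adjusted p = 0.0641 and 0.065). Lysosomal genes, shared by all cells but abundant in phagocytes, fell in 23 of 28 cases and rose in 1. Ctss, cathepsin S, stood at 1247, 1345 and 1568 CPM at 7 d and 102, 108 and 95.9 CPM at 28 d and fell 13.6-fold (log2 fold change -3.77 ± 0.14, edgeR adjusted p = 4.35e-05), while Ctsk, cathepsin K, fell 3.16-fold and Ctsd, cathepsin D, 2.26-fold. The member that rose was Tfeb, a transcription factor of lysosome genes, from 28.8, 29.2 and 29.9 CPM to 38.3, 45.7 and 38.2 CPM.

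Markers of tissue-resident macrophages had no common direction. Of 14 tested, 2 rose and 2 fell (14.3% each, against 22.0% and 24.9% of all tested genes), with a median of 0.76. Without 28 d replicate 3 the counts were 1 and 5 with a median of -0.45. Without the Adipoq-rich libraries they were 3 and 6 with a median of -0.64. No member was called higher without 7 d replicate 1 or 2, and 1 was called lower without any 1 of 7 d replicates 1 and 3 and 28 d replicates 1 and 2. In 13 of the 14 genes replicate 3 was the highest 28 d library. Cd163, a haemoglobin scavenger receptor, was at 1.33, 4.09 and 15.4 CPM at 7 d and 19.6, 8.34 and 32.4 CPM at 28 d, overlapping between times (edgeR adjusted p = 0.165). Without 7 d replicate 3 it was called higher, with a log2 fold change of 2.89 (edgeR adjusted p = 0.0221). Gas6, a ligand of receptors for the uptake of dying cells, fell from 839.6, 764 and 733 CPM to 464, 517 and 472 CPM (log2 fold change -0.68 ± 0.11, edgeR adjusted p = 0.00291).

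Other immune lists fell in part. Chemokines and their receptors fell in 13 of 30 cases and rose in 0, the latter 1 without 28 d replicate 2 and 2 without 28 d replicate 3. Cx3cr1, the fractalkine receptor, fell 8.98-fold (log2 fold change -3.17 ± 0.24, edgeR adjusted p = 0.00015), to 13.2, 14.5 and 7.37 CPM, below all sham values (21.4, 23.8 and 23.7 CPM). Cytokine and inflammasome genes fell in 11 of 19 cases and rose in 0. Il6 went from 4.55, 2.26 and 3.23 CPM to 0.639, 0.529 and 0.535 CPM and Il1b from 11.8, 7.8 and 3.92 CPM to 2.13, 1.79 and 1.19 CPM. Among complement genes 8 of 21 fell (38.1%) and 2 rose (9.52%), against 24.9% and 22.0% of all tested genes. C3ar1, the C3a receptor, fell 14.7-fold, and C1qb, a chain of the first component, 4.03-fold to 155, 163 and 183 CPM.

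Most genes of MHC class II presentation fell. Of 11 MHC class II genes 9 fell and 0 rose (median -0.82), and 5 fell without the Adipoq-rich libraries. H2-DMb1, which helps load peptides, went from 41.3, 38 and 42.5 CPM to 19.6, 23.9 and 23.1 CPM (log2 fold change -0.87 ± 0.11, edgeR adjusted p = 0.00108). Of 15 class I genes 7 fell, and between 3 and 11 did when 1 library was left out (3 without 7 d replicate 1 or 3, 4 without 28 d replicate 1 or 2, 11 without 7 d replicate 2), and 2 did without the Adipoq-rich libraries. Lymphocyte markers were few and low. The share that fell was 36.4% of T and NK cell genes and 30% of B and plasma cell genes, beside 24.9% of all tested genes. Of 22 T and NK cell genes 8 fell and 1 rose (5 fell without the Adipoq-rich libraries), and of 10 B and plasma cell genes 3 fell and 0 rose. Gzma, granzyme A of cytotoxic cells, was at 5.32, 3.5 and 9.7 CPM at 7 d and 0.994, 0.794 and 0.832 CPM at 28 d (log2 fold change -2.81 ± 0.42, edgeR adjusted p = 0.00191). Ctla4, a T cell inhibitory receptor, rose from 0.256, 0.269 and 0.159 CPM to 0.639, 1.12 and 1.13 CPM, and stood higher still in sham hearts, at 2.09, 1.91 and 3.14 CPM. Among 7 neutrophil markers 4 fell and 0 rose, and Csf3r, the receptor for granulocyte colony-stimulating factor, stood at 57.2, 54.3 and 43.3 CPM at 7 d and 7.17, 9.46 and 8.91 CPM at 28 d. Of 14 dendritic cell genes 6 fell and 0 rose.

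Interferon-stimulated genes, which answer type I and II interferons and many of which carry an interferon response element in the promoter, had no common direction. Of 34 tested, 7 fell (20.6%) and 2 rose (5.88%), against 24.9% and 22.0% of all tested genes, with a median log2 fold change of -0.06. Their summed level was 1529 to 1689 CPM at 7 d and 1540 to 1716 CPM at 28 d. Bst2, tetherin, which holds budding virus at the cell surface, stood at 106, 77.4 and 93.2 CPM at 7 d and 45.3, 42 and 39.9 CPM at 28 d and fell 2.18-fold (log2 fold change -1.12 ± 0.13, edgeR adjusted p = 0.00083). Isg15, a ubiquitin-like protein, stood at 29.2, 23.2 and 23.5 CPM at 7 d and 14.8, 15 and 13.6 CPM at 28 d and fell 1.75-fold (log2 fold change -0.80 ± 0.13, edgeR adjusted p = 0.00232). Gbp7, a guanylate-binding protein, rose from 25.2, 31.4 and 29.6 CPM to 45.1, 49.96 and 40.8 CPM (log2 fold change 0.66 ± 0.12, edgeR adjusted p = 0.00471). Without 28 d replicate 3, 6 members rose and 9 fell. Without the Adipoq-rich libraries 5 rose and the median was 0.075, and without any 1 of 7 d replicates 1 and 2 or 28 d replicates 1 and 2 only 1 rose. The core of the element, TTTC and TTTC with 2 bases of any kind between them, on either strand with overlapping matches counted, was found in the 250 bases before the start of 15 of 27 list members with a RefSeq promoter (55.6%), against 2.76% of 11089 tested genes with one. The 150 bases before the start of Isg15 (chr4:156200819-156200968, minus strand, GRCm38.p6) and Bst2 (chr8:71537473-71537622, minus strand) are shown, with matches in capitals. Isg15 and Bst2 are 2 of the 7 members that fell, and in each the matches overlap one another.
Isg15: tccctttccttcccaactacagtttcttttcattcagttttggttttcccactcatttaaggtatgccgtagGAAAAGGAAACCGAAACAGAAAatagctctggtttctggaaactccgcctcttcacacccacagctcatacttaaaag
Bst2: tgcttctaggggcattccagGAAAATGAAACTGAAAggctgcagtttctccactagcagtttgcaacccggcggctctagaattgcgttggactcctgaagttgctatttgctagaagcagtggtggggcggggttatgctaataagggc
The list holds genes with matches that fell, rose or did not pass, and a match is a description of the sequence.

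Most cell division genes were lower at 28 d. Of 36 mitosis and spindle genes 33 fell and 1 rose, with a median log2 fold change of -1.81. Mki67, the proliferation marker (chromosome 7, 135689784-135716450), stood at 78.7, 65.1 and 63.7 CPM at 7 d and 22.4, 27.7 and 14.4 CPM at 28 d and fell 3.22-fold (log2 fold change -1.69 ± 0.23, edgeR adjusted p = 0.0014). Cdk1, the kinase that starts mitosis (chromosome 10, 69335146-69352912), stood at 21.1, 16.2 and 18.7 CPM at 7 d and 3.62, 5.43 and 5.29 CPM at 28 d and fell 3.89-fold (log2 fold change -1.96 ± 0.20, edgeR adjusted p = 0.000454). Ccnb2, a cyclin partner of that kinase, stood at 13.6, 9.09 and 11.8 CPM at 7 d and 1.63, 2.98 and 1.78 CPM at 28 d and fell 5.38-fold (log2 fold change -2.43 ± 0.28, edgeR adjusted p = 0.000794). In sham hearts Mki67 was at 11.6, 13 and 13.7 CPM, Cdk1 at 2.85, 1.91 and 1.84 CPM and Ccnb2 at 1.81, 1.31 and 2.12 CPM. Plk1, a mitotic kinase, fell 4.54-fold and Top2a, which untangles DNA, 3.3-fold. Cenpa, the centromere histone, was the member called higher, at 25.9, 19.95 and 19.2 CPM at 7 d and 33.5, 33.6 and 25.5 CPM at 28 d, a call lost without 7 d replicates 2 or 3 or 28 d replicates 1 or 2 (edgeR adjusted p = 0.121, 0.117, 0.0959 and 0.102). In 25 of the 36 genes 28 d replicate 3 was the lowest of its group.

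Promoters of mitotic genes are known for CCAAT boxes and the cell cycle homology region, TTTGAA. Searched on both strands in the 250 bases before the start, CCAAT was present in 21 of 29 list members with a promoter (72.4%) against 36.1% of 11089 tested genes. TTTGAA was present in 10 of 29 (34.5%) against 10.7%, and both in 9 of 29 (31%) against 4.08%. Promoters of Cdk1 and Ccnb2 are shown from RefSeq (GRCm38.p6, minus strand), because both genes fell and hold both motifs. Matches are in capitals, ATTGG being CCAAT on the other strand. The stretches are chr10:69352913-69353032 for Cdk1 and chr9:70421555-70421674 for Ccnb2, whose TTTGAA lies upstream of the bases shown.
Cdk1: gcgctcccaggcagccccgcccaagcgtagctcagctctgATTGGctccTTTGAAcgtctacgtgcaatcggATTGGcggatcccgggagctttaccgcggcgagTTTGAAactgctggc
Ccnb2: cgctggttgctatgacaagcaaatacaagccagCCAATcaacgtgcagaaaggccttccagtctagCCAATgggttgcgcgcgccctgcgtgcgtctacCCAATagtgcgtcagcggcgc
The 3 CCAAT boxes of Ccnb2 begin at positions -87, -54 and -21 from the start.

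DNA replication genes fell in 23 of 35 cases and rose in 0 (median -0.74), and in 11 without the Adipoq-rich libraries. Mcm10, a replication initiation factor, went from 3.53, 3.39 and 4.67 CPM to 0.994, 1.26 and 1.07 CPM, and Tyms, thymidylate synthase, fell 3.21-fold (log2 fold change -1.68 ± 0.20, edgeR adjusted p = 0.000836). Among cyclins, kinases and inhibitors of G1, 14 of 25 fell and 3 rose. E2f2, a transcription factor of S phase entry, fell 4.62-fold to 2.2, 2.51 and 1.72 CPM. The D-type cyclins Ccnd1 and Ccnd2 went the other way. Ccnd2 stood at 123, 148 and 112 CPM at 7 d and 351, 352 and 277 CPM at 28 d and rose 2.56-fold (log2 fold change 1.36 ± 0.15, edgeR adjusted p = 0.000711), above its sham level of 176, 203 and 184 CPM. Ccnd1 rose from 49.3, 43.5 and 51.6 CPM to 107, 103 and 79.3 CPM (log2 fold change 1.00 ± 0.14, edgeR adjusted p = 0.0014), against 123, 114 and 118 CPM in sham hearts. Cdkn2b, an inhibitor of G1 kinases, fell 3.46-fold, from 13.7, 15.6 and 9.07 CPM.

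Genes of the contractile apparatus rose. All 32 adult sarcomere genes were higher at 28 d than at 7 d, with a median log2 fold change of 1.49. Their summed level was 36909 to 44673 CPM at 7 d, 73913 to 119197 CPM at 28 d and 168949 to 172342 CPM in sham hearts. The median member stood at 25.4% of its sham mean at 7 d and at 67.5% at 28 d. Myh6, the fast heavy chain of myosin in adult mouse heart (chromosome 14, 54941921-54968017), stood at 5788, 4013 and 4708 CPM at 7 d and 23826, 14630 and 10535 CPM at 28 d and rose 3.38-fold (log2 fold change 1.76 ± 0.32, edgeR adjusted p = 0.00402). Tnni3, cardiac troponin I, stood at 569, 412 and 429 CPM at 7 d and 2486, 1879 and 1376 CPM at 28 d and rose 4.07-fold (log2 fold change 2.03 ± 0.25, edgeR adjusted p = 0.000933). Ttn, titin, the spring of the sarcomere, rose from 19.9% of its sham mean at 7 d to 73.5% at 28 d. The 28 d libraries were ordered alike in most of these genes. Replicate 1 was the highest in 28 of 32 and replicate 3 the lowest in all 32. With 1 library left out between 30 and 32 of them were called. Ckm, muscle creatine kinase, showed the spread most plainly, with 743, 279 and 217 CPM against 77.2, 61.6 and 54.2 CPM at 7 d (log2 fold change 2.68 ± 0.47, edgeR adjusted p = 0.00351).

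**Figure D3:**
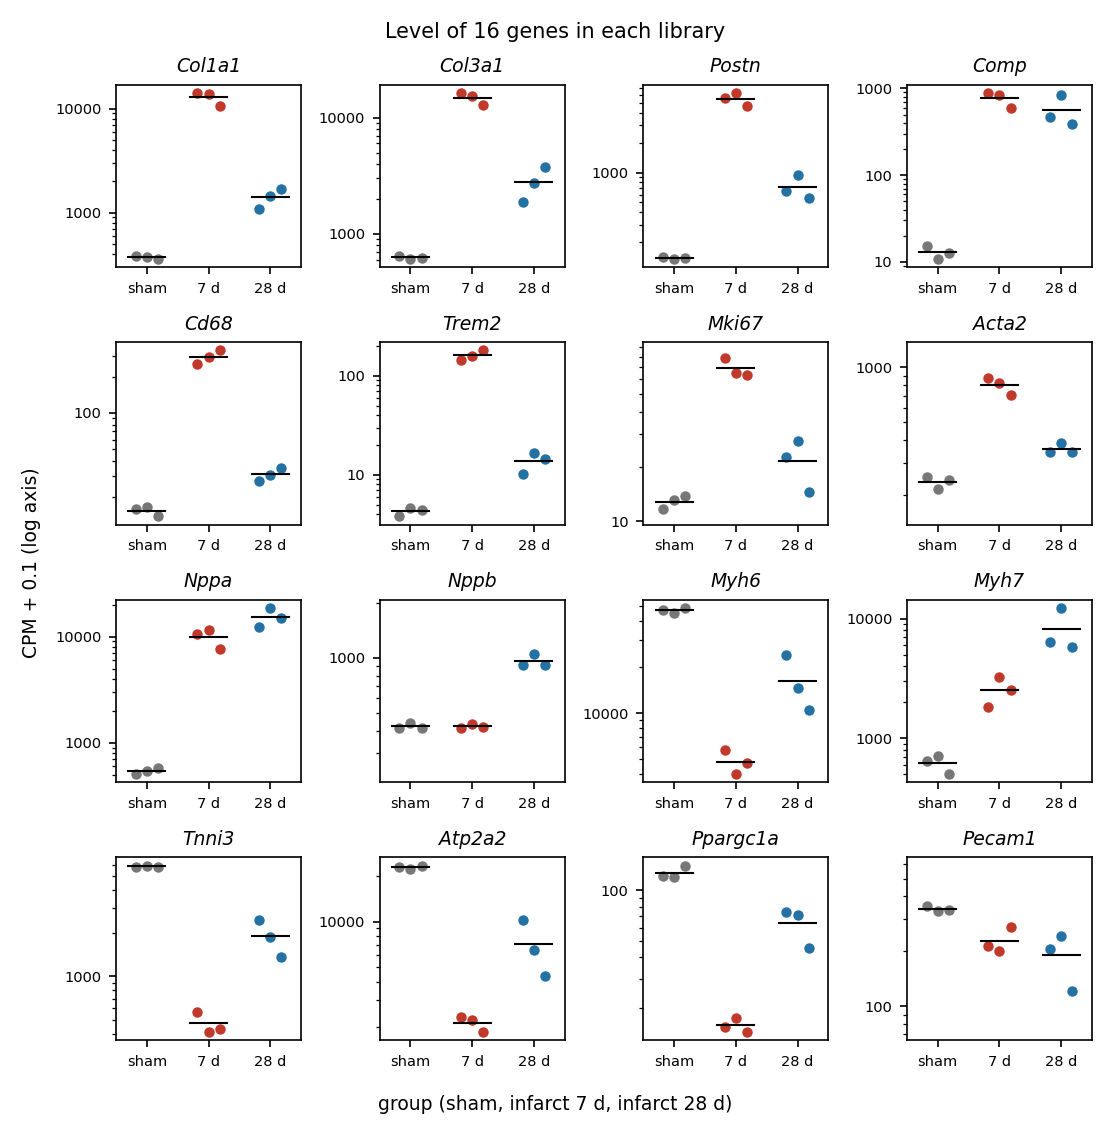
CPM + 0.1 on a log axis for 16 genes fixed as a panel, in each library of the sham, infarct 7 d and infarct 28 d groups (3 points a group, bars are means). Col1a1, Col3a1, Postn, Cd68, Trem2, Mki67 and Acta2 were lower in every 28 d library than in every 7 d library, the muscle genes, Nppa, Nppb and Ppargc1a were higher, and Comp and Pecam1 overlapped.

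Calcium handling and ion channel genes also rose. Of 23 calcium handling genes 17 rose and 3 fell, and of 27 ion channel and gap junction genes 21 rose and 1 fell. Atp2a2, which pumps calcium back into its store (chromosome 5, 122453513-122502225), stood at 2323, 2217 and 1866 CPM at 7 d and 10269, 6528 and 4357 CPM at 28 d and rose 3.3-fold (log2 fold change 1.72 ± 0.31, edgeR adjusted p = 0.00383). Pln, its inhibitor phospholamban, stood at 1476, 1360.2 and 1142 CPM at 7 d and 5161, 4343 and 2975 CPM at 28 d and rose 3.14-fold (log2 fold change 1.65 ± 0.23, edgeR adjusted p = 0.00142). Ryr2, the calcium release channel, rose 2.58-fold, and Hrc, a calcium-binding protein of the store, 6.31-fold to 22% of sham. Fkbp1b, a regulator of the release channel, fell from 8.34, 8.39 and 7.85 CPM to 2.56, 3.44 and 2.73 CPM. The count of lower members in the calcium list was 1 without 7 d replicate 3 or the Adipoq-rich libraries, or without 28 d replicate 1 or 2. Kcnip2, a subunit of the transient outward potassium channel, stood at 12.6, 9.79 and 8.43 CPM at 7 d and 111, 53 and 42.5 CPM at 28 d and rose 6.69-fold (log2 fold change 2.74 ± 0.38, edgeR adjusted p = 0.00149). Gja1, connexin 43, rose 1.83-fold to 759.8, 764 and 570.4 CPM, against 831, 837 and 872 CPM in sham hearts. Gja5, connexin 40, of atrium, conduction system and arteries, fell 2.29-fold.

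Of 17 cardiac transcription factors 13 rose and 0 fell. Nkx2-5 stood at 29.1, 26.4 and 22.7 CPM at 7 d and 74.5, 79.1 and 62.5 CPM at 28 d and rose 2.77-fold (log2 fold change 1.47 ± 0.13, edgeR adjusted p = 0.000301), against 69.8, 70.4 and 72 CPM in sham hearts, so that 28 d values lay on both sides of the sham values. Gata4 rose 1.62-fold and Myocd, a coactivator in heart and smooth muscle, 2.93-fold. Tbx20, Mef2a, Mef2c and Zfpm2 did not pass.

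Genes of the fetal and wall stress programme more often rose than fell. Of 20 tested genes 11 rose and 4 fell (2 without the Adipoq-rich libraries), the median member stood at 232% of its sham mean at 7 d and 225% at 28 d, and the 28 d mean lay between the 7 d and sham means for 8 of 20. Nppb, which encodes brain natriuretic peptide (chromosome 4, 147985786-147987205), stood at 414, 435 and 417 CPM at 7 d and 914, 1047 and 912 CPM at 28 d and rose 2.27-fold (log2 fold change 1.18 ± 0.11, edgeR adjusted p = 0.000371). Its sham level was 415, 442 and 415 CPM, close to the 7 d values. Nppa, which encodes atrial natriuretic peptide (chromosome 4, 148000722-148002074), was at 10525, 11470 and 7661 CPM at 7 d and 12347, 18522 and 14899 CPM at 28 d, did not overlap between times and narrowly missed the threshold (log2 fold change 0.63 ± 0.22, edgeR adjusted p = 0.0525). It passed without 28 d replicate 1 (log2 fold change 0.78, edgeR adjusted p = 0.0335) and without 28 d replicate 3 (0.64 and 0.0413). DESeq2 also called it higher (log2 fold change 0.66, DESeq2 adjusted p = 0.00399). So did edgeR with all 9 libraries in the fit (0.66 and 0.0157), a replicate block, DESeq2-type size factors or a stricter filter. It was not called by limma voom, with library size alone, with no filter, or without any 7 d library or 28 d replicate 2. Myh7, the slow fetal myosin heavy chain (chromosome 14, 54970684-54994626), stood at 1822, 3278 and 2538 CPM at 7 d and 6357, 12298 and 5846 CPM at 28 d and rose 3.21-fold (log2 fold change 1.68 ± 0.35, edgeR adjusted p = 0.00699), away from its sham level of 645, 712 and 502 CPM. Myh6 rose as well, and the ratio of Myh7 to Myh6 counts overlapped between the times, at 0.315, 0.817 and 0.539 in the 7 d libraries and 0.267, 0.841 and 0.555 in the 28 d libraries, and was at most 0.0157 in sham hearts. Ankrd1, a stretch-responsive protein of the sarcomere, stood at 4224, 3776 and 3173 CPM at 7 d and 9034, 12207 and 8722 CPM at 28 d and rose 2.68-fold (log2 fold change 1.42 ± 0.19, edgeR adjusted p = 0.0014). In the other direction, Actn1, a non-muscle actinin, fell 2.6-fold and Clu, clusterin, 1.8-fold. Tnni1, the slow troponin I of the fetal heart, fell from 3.33, 1.61 and 1.48 CPM to 0.639, 0.993 and 0.416 CPM, a call lost without 7 d replicate 1 or 28 d replicate 1 (edgeR adjusted p = 0.0825 and 0.0678).

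Adrenergic and cyclic nucleotide genes rose in 12 of 28 cases and fell in 5, with 8 to 15 higher when 1 library was left out and 3 lower without the Adipoq-rich libraries. Pde1c, a phosphodiesterase, stood at 24.3, 24.6 and 17.1 CPM at 7 d and 89.1, 82.4 and 56.7 CPM at 28 d and rose 3.46-fold. Rgs4 and Rgs2, which shorten G protein signals, fell 2.77-fold and 2.65-fold, Rgs2 to 28.5, 15.8 and 15.2 CPM, below its sham level of 32.2, 40.03 and 38.7 CPM.

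Nuclear genes of mitochondrial energy production rose nearly as a block. All 35 tested genes of respiratory complex I rose, 40 of 42 of complexes II to V, 27 of 28 of the TCA cycle and pyruvate dehydrogenase, and 20 of 23 of branched-chain amino acid and ketone catabolism, with 0 lower in each. In the list for fatty acid uptake and oxidation 27 of 31 rose and 1 fell. Median log2 fold changes were 1.17, 1.22, 1.49, 1.10 and 1.29 in that order. The median complex I gene stood at 19.3% of its sham mean at 7 d and 42.8% at 28 d, and the median fatty acid gene at 11.5% and 32.2%. For all 35 complex I genes replicate 1 was the highest 28 d library and replicate 3 the lowest, and replicate 3 still lay above every 7 d library.

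Ndufs1, a core subunit of complex I (chromosome 1, 63143592-63176822), stood at 157, 139.9 and 148 CPM at 7 d and 576, 451 and 318 CPM at 28 d and rose 3.02-fold (log2 fold change 1.60 ± 0.21, edgeR adjusted p = 0.00131). Cox7a1, the heart and muscle form of a cytochrome oxidase subunit, stood at 44.1, 34.1 and 34.5 CPM at 7 d and 262, 145 and 112 CPM at 28 d and rose 4.61-fold (log2 fold change 2.20 ± 0.31, edgeR adjusted p = 0.00161). Cox6a1 and Atp5g2, isoforms found in most tissues, were the 2 members of complexes II to V that did not pass, whereas the muscle isoform Cox6a2 rose 4.01-fold and Atp5g1 3.06-fold. Idh2, a mitochondrial dehydrogenase, stood at 295, 272 and 260.1 CPM at 7 d and 1611, 1065 and 759 CPM at 28 d and rose 4.15-fold, and Cs, citrate synthase, rose 2.83-fold. Pdk4, the kinase that turns off pyruvate dehydrogenase, stood at 53.2, 50.7 and 60.3 CPM at 7 d and 269.96, 260.1 and 185 CPM at 28 d and rose 4.36-fold (log2 fold change 2.12 ± 0.17, edgeR adjusted p = 0.000168). Fabp3, the heart fatty acid-binding protein, stood at 471, 329 and 353 CPM at 7 d and 2161, 1349 and 968 CPM at 28 d and rose 3.88-fold, and Plin5, which tethers lipid droplets to mitochondria, 5.51-fold. Cpt1a, the liver form of the enzyme that admits long-chain fatty acids to mitochondria, was the member that fell, from 147, 149 and 162 CPM to 98.8, 114 and 113 CPM (log2 fold change -0.49 ± 0.10, edgeR adjusted p = 0.00571). Its call was lost without the Adipoq-rich libraries (edgeR adjusted p = 0.158).

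**Figure D4:**
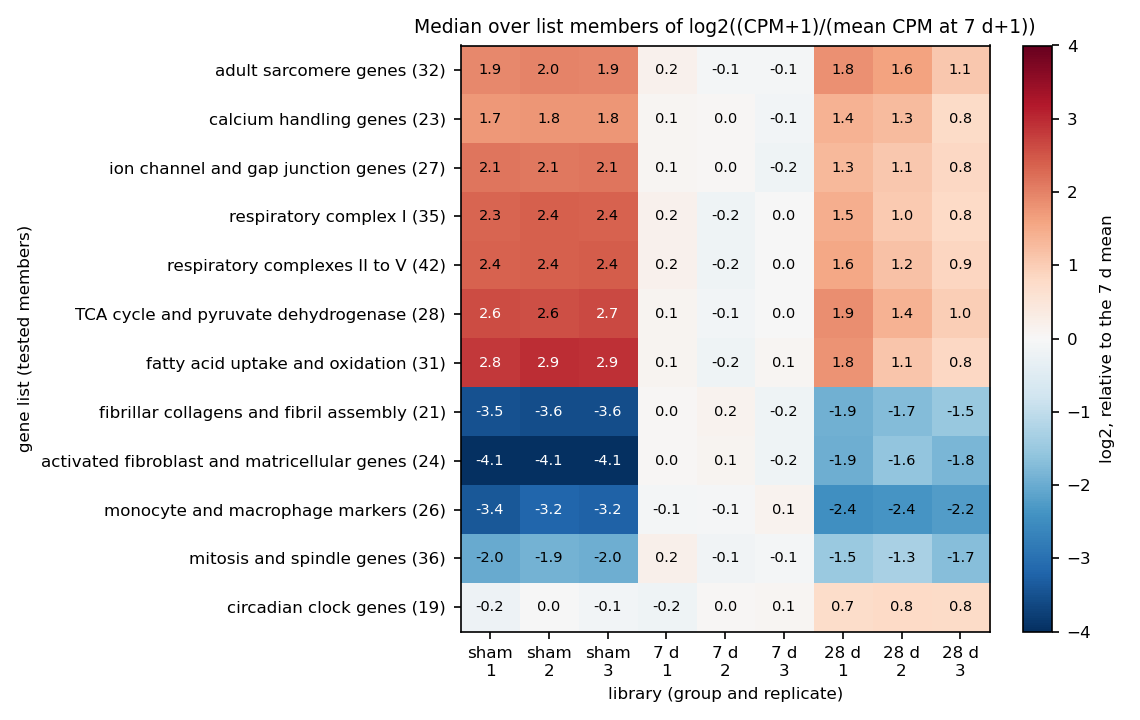
Median over the tested members of 12 gene lists (rows) of log2 of CPM plus 1 relative to the 7 d mean plus 1, in each of the 9 libraries (columns), on a colour scale from -4 to 4. Muscle and mitochondrial lists were highest in 28 d replicate 1 and lowest in replicate 3 within their time, between the 7 d and sham libraries, while the clock list stood at 0.7 to 0.8 at 28 d and near 0 in sham and 7 d libraries.

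Most called regulators of these genes rose. In the list of PPAR, ERR and PGC-1 regulators and targets 12 of 20 rose and 1 fell, the latter 2 without 7 d replicate 2 and 3 without 28 d replicate 3 or the Adipoq-rich libraries. Ppargc1a, the coactivator of mitochondrial biogenesis (chromosome 5, 51454249-52115853), stood at 15.4, 17.4 and 14.5 CPM at 7 d and 73.8, 70.7 and 45.7 CPM at 28 d and rose 4.02-fold (log2 fold change 2.01 ± 0.20, edgeR adjusted p = 0.000397). Ppara, the fatty acid-sensing receptor, stood at 11.8, 13.5 and 12.2 CPM at 7 d and 98.5, 62.8 and 46.1 CPM at 28 d and rose 5.53-fold (log2 fold change 2.47 ± 0.27, edgeR adjusted p = 0.000659). Perm1, a muscle partner of these factors, rose 5.8-fold. The member that fell was Ucp2, an uncoupling protein also made by macrophages, from 257, 271 and 319 CPM to 110.2, 151 and 108 CPM. The binding element of estrogen-related receptors, AAGGTCA on either strand, was found within 250 bases before the start of 2 of 31 complex I genes (6.45%), 2 of 32 of complexes II to V (6.25%), 1 of 25 TCA genes (4%) and 1 of 26 fatty acid genes (3.85%), against 2.77% of tested genes. Mitochondrial ribosomal protein genes rose in 28 of 36 cases by a smaller median of 0.67, in 18 without 7 d replicate 2 and in 17 without the Adipoq-rich libraries. Genes of glucose uptake, glycolysis and glycogen rose in 22 of 30 cases and fell in 2. Slc2a4, the insulin-responsive glucose transporter, stood at 81.3, 60.5 and 79.4 CPM at 7 d and 331, 212 and 155 CPM at 28 d and rose 3.16-fold (log2 fold change 1.66 ± 0.28, edgeR adjusted p = 0.00291). Pygm, muscle glycogen phosphorylase, rose 3.37-fold. Hk3, the hexokinase of white blood cells, and Slc16a3, a lactate exporter, fell 5.08-fold and 2.18-fold, and without 28 d replicate 3 or the Adipoq-rich libraries the list had 4 lower members.

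Few endothelial markers changed, and the median member stood at 62.7% of its sham mean at 7 d and 63.2% at 28 d. Of 26 tested, 2 rose and 3 fell, against 46.9% of all tested genes called, with a median log2 fold change of -0.11. Without the Adipoq-rich libraries 6 rose and 1 fell and the median was 0.24, and without 28 d replicate 3 it was 0.06. Leaving out 1 library moved these counts between 0 and 5 and between 1 and 4. Pecam1, the endothelial adhesion protein CD31 (chromosome 11, 106654213-106715281), was at 215, 201 and 269.8 CPM at 7 d and 206, 243 and 121 CPM at 28 d, a difference that missed the threshold (log2 fold change -0.27 ± 0.25, edgeR adjusted p = 0.418). Its lowest value was in 28 d replicate 3. Cdh5, the adherens junction cadherin of endothelium, was at 268, 291 and 305 CPM at 7 d and 283, 235 and 132 CPM at 28 d, against 590.4, 579.9 and 567 CPM in sham hearts, and did not pass (edgeR adjusted p = 0.223). Aplnr, the apelin receptor, fell 3.21-fold, to 43.4, 40.3 and 22.9 CPM (log2 fold change -1.68 ± 0.22, edgeR adjusted p = 0.00131). At 7 d it had stood at 114, 113 and 116 CPM, and in sham hearts at 138, 151 and 139 CPM. The counts of higher members were 0 without 7 d replicate 1 or 2, 5 without 7 d replicate 3, 1 without 28 d replicate 1 and 4 without 28 d replicate 3, and those of lower members 1 without 7 d replicate 1 or 3.

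Among angiogenic ligands and receptors 5 of 23 rose (21.7%) and 6 fell (26.1%), near the 22.0% and 24.9% of all tested genes. The count of higher members was 3 without 7 d replicate 1 or 2. Vegfa, the main endothelial growth factor (chromosome 17, 46016993-46032377), stood at 78.5, 91.6 and 82.8 CPM at 7 d and 256, 283 and 252 CPM at 28 d and rose 3.13-fold (log2 fold change 1.64 ± 0.11, edgeR adjusted p = 9.04e-05), to 64.3% of its sham mean. Vegfb, its heart muscle relative, rose 2.29-fold. Vegfd, a ligand of lymphatic growth, fell 2.21-fold, Angpt2, an antagonist in vessel remodelling, 3.24-fold, and Pgf, placental growth factor, 2.5-fold. Angpt2 went from 45.1, 31.3 and 37.2 CPM to 12.1, 14.3 and 8.67 CPM. Of 8 lymphatic endothelial genes 4 rose and 0 fell. Flt4, the receptor of lymphatic vessels, stood at 60.6, 46 and 56.8 CPM at 7 d and 77.2, 121 and 96.5 CPM at 28 d and rose 1.8-fold (log2 fold change 0.85 ± 0.18, edgeR adjusted p = 0.00793). Prox1, a lymphatic factor also made by heart muscle, stood at 26.4, 31 and 27.3 CPM at 7 d and 68.9, 78.9 and 51.3 CPM at 28 d and rose 2.35-fold (log2 fold change 1.23 ± 0.17, edgeR adjusted p = 0.00136). Reln, reelin, rose from 9.57, 3.07 and 9.17 CPM to 12.9, 37.3 and 38.2 CPM.

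Smooth muscle and pericyte genes fell in 8 of 20 cases (40%, against 24.9% of all tested genes). They rose in 3 (15%, against 22.0%), or in 1 without 7 d replicate 1. Tagln, a cytoskeletal protein of smooth muscle and myofibroblasts, stood at 422, 415 and 388 CPM at 7 d and 122, 153 and 111 CPM at 28 d and fell 3.18-fold (log2 fold change -1.67 ± 0.14, edgeR adjusted p = 0.00023). Pdgfrb, the receptor of pericytes and fibroblasts, fell 2.79-fold to 162, 177 and 149 CPM, below the sham values of 195, 184 and 189.8 CPM. Synpo2, an actin-binding protein of muscle, rose 1.8-fold.

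Most circadian clock genes differed between the times. Arntl and Npas2 fell, the Per genes, Cry1 and the output genes Dbp, Tef and Hlf rose, and Clock and Nr1d1 did not pass. In the clock loop the activators BMAL1 (gene Arntl) and CLOCK or NPAS2 bind E-boxes and turn on the Per and Cry repressors and output factors such as Dbp, Tef and Hlf. Of 19 tested genes 13 rose and 2 fell. Arntl (chromosome 7, 113178471-113314126) stood at 17.9, 14 and 15.1 CPM at 7 d and 3.34, 4.37 and 3.15 CPM at 28 d and fell 4.32-fold (log2 fold change -2.11 ± 0.19, edgeR adjusted p = 0.000269). Npas2 stood at 6.86, 5 and 4.88 CPM at 7 d and 2.63, 3.38 and 2.49 CPM at 28 d and fell 1.97-fold (log2 fold change -0.98 ± 0.23, edgeR adjusted p = 0.0113), a call lost without the Adipoq-rich libraries (edgeR adjusted p = 0.094). Clock was at 48.2, 61.6 and 55.6 CPM at 7 d and 60.6, 71.1 and 66.2 CPM at 28 d, overlapping between times (edgeR adjusted p = 0.108). Among the alternatives, only the fit of all 9 libraries called it higher (log2 fold change 0.30, edgeR adjusted p = 0.0227). Per1 (chromosome 11, 69095108-69109965) stood at 31.6, 34.9 and 44.5 CPM at 7 d and 126, 146 and 162 CPM at 28 d and rose 3.91-fold (log2 fold change 1.97 ± 0.16, edgeR adjusted p = 0.000186). Per2 stood at 9.77, 12.9 and 14.3 CPM at 7 d and 53.1, 56.8 and 84.6 CPM at 28 d and rose 5.28-fold (log2 fold change 2.40 ± 0.22, edgeR adjusted p = 0.000331). Ciart, a repressor of the activators, stood at 2.81, 2.58 and 4.03 CPM at 7 d and 16.4, 17.9 and 18.4 CPM at 28 d and rose 5.57-fold (log2 fold change 2.48 ± 0.20, edgeR adjusted p = 0.00018). For these genes except Clock all 3 libraries of 1 time lay above those of the other. That held for 59.6% of all tested genes and for 6639 of the 6681 called, so it does not set the clock genes apart.

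Output genes rose too, Hlf 6.73-fold to 40.8, 39.2 and 58.8 CPM, Dbp 2.13-fold to 92.1, 87.1 and 99.1 CPM, and Tef 2.04-fold to 269, 243 and 243 CPM. Of the other repressors Per3 rose 2.18-fold to 57.9, 67 and 72.8 CPM, Cry1 2.26-fold and Nr1d2, a repressor of Arntl, 1.74-fold. Its relative Nr1d1 was at 84.2, 114 and 134 CPM at 7 d and 125, 145 and 159 CPM at 28 d, short of the threshold (edgeR adjusted p = 0.126). Nr1d1 was called higher only with all 9 libraries in the fit (log2 fold change 0.42, edgeR adjusted p = 0.0401) and with a replicate block (0.39 and 0.0275). Arntl stood at 58, 54.1 and 56.1 CPM and Per2 at 2.95, 3.82 and 5.07 CPM in sham hearts, so that 7 d values lay between sham and 28 d values, and the 28 d mean lay between the 7 d and sham means for only 4 of 19 clock genes against 67.3% of all tested genes. These genes vary over the day. The labels do not give the time of harvest, so a difference in harvest time and a difference of time after infarction cannot be told apart here. Counts of 13 and 2 were the same without 28 d replicate 3, and with 1 library left out between 10 and 13 members rose and 2 fell.

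**Figure D5:**
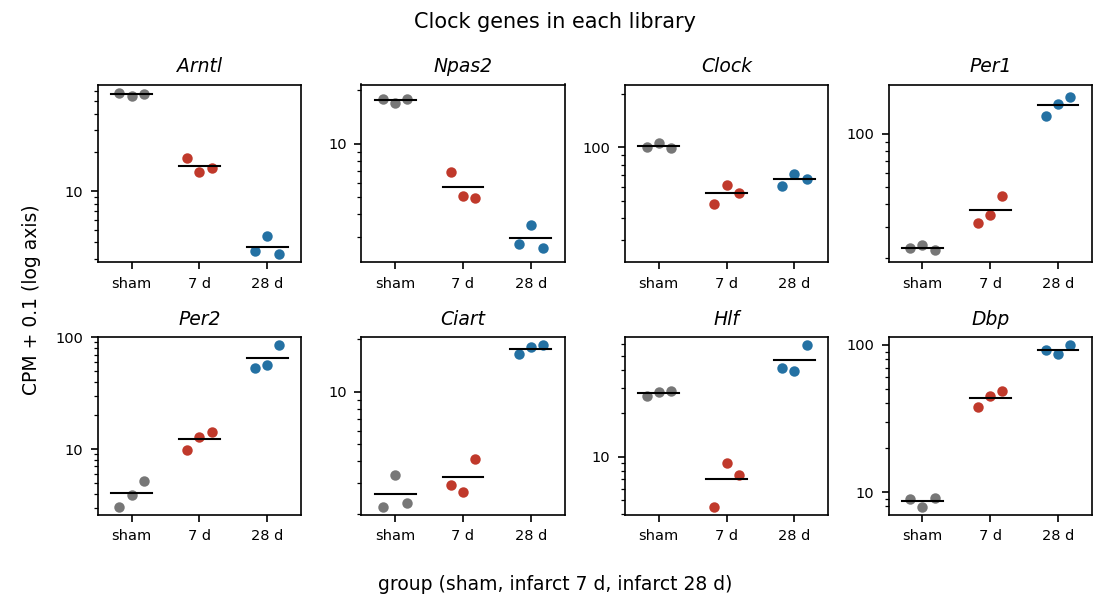
CPM + 0.1 on a log axis for 8 clock genes in each library of the sham, infarct 7 d and infarct 28 d groups (3 points a group, bars are means). Arntl and Npas2 were highest in sham and lowest at 28 d, Per1, Per2, Ciart and Dbp were highest at 28 d, and Clock overlapped between the infarct groups.

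The E-box CACGTG, searched after the clock genes had been seen, was found within 250 bases before the start of 5 of 16 clock genes with a promoter (31.2%) against 8.36% of tested genes. Both promoters below (RefSeq, GRCm38.p6, the 200 bases before the start) hold it and belong to genes that rose, Per1 at chr11:69098749-69098948 on the plus strand and Ciart at chr3:95882229-95882428 on the minus strand. The RefSeq start used for Per1 lies inside the gene as annotated, downstream of its first start. E-boxes are in capitals.
Per1: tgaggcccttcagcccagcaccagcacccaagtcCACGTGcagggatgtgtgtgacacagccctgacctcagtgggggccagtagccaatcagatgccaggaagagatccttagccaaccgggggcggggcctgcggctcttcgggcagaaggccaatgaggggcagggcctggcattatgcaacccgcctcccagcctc
Ciart: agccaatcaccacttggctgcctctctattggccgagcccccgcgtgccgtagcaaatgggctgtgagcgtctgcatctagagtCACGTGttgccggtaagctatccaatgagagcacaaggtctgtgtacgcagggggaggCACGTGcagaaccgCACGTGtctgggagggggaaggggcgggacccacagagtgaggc
Ciart holds 3 E-boxes in this stretch and Per1 holds 1.

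Heat shock protein genes rose in 19 of 20 cases, with a median log2 fold change of 1.08. Hsph1, a cochaperone, stood at 42.6, 39.4 and 43.7 CPM at 7 d and 157, 99.995 and 123 CPM at 28 d and rose 3.02-fold (log2 fold change 1.59 ± 0.17, edgeR adjusted p = 0.000515), around or above its sham level of 100.3, 92.9 and 95.4 CPM. Hspb6, a small heat shock protein of muscle, rose 4.16-fold. The inducible Hspa1a and Hspa1b are near-identical copies whose reads may be split between them, and rose from 4.66, 3.55 and 4.82 CPM to 57.5, 16.7 and 29.1 CPM and from 6.65, 8.17 and 7.79 CPM to 45.4, 15.9 and 32.3 CPM. In sham hearts neither was above 3.52 CPM. Replicate 1 was the highest 28 d library for 19 of the 20 genes. Immediate early genes rose in 8 of 21 cases and fell in 2, the latter 0 without 7 d replicate 1 or 3 or the Adipoq-rich libraries and 1 without 28 d replicate 1 or 3. Nr4a1, a nuclear receptor induced within minutes by many stimuli, stood at 17.3, 20.5 and 19.7 CPM at 7 d and 95.4, 88.7 and 59.6 CPM at 28 d and rose 4.24-fold (log2 fold change 2.08 ± 0.19, edgeR adjusted p = 0.000284). Nr4a3 rose 6.86-fold to 41.2, 20.5 and 31.9 CPM, above its sham level of 2.57, 2.31 and 1.38 CPM. Fos, Jun and Egr1 did not pass. The shares of immediate early genes, 38.1% higher and 9.52% lower, stood beside 22.0% and 24.9% of all tested genes.

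Genes of the cytosolic ribosome fell. Of 40 cytosolic ribosomal protein genes 37 fell and 0 rose, by a median log2 fold change of -0.59, and stood at 164% of sham at 7 d and 107% at 28 d in the median member. Many have processed copies elsewhere in the genome, so single genes of this family are uncertain. Rpl32 stood at 408, 365 and 379 CPM at 7 d and 229, 215 and 234 CPM at 28 d and fell 1.7-fold (log2 fold change -0.76 ± 0.10, edgeR adjusted p = 0.00132). Protein folding genes of the endoplasmic reticulum fell in 7 of 26 cases (26.9%), near the 24.9% of all tested genes. They rose in 2 (7.69%, against 22.0%). The count of lower members was 4 without 7 d replicate 1. Herpud1, which helps clear misfolded proteins, rose from 86.2, 83 and 88.9 CPM to 203, 187 and 175 CPM (log2 fold change 1.13 ± 0.09, edgeR adjusted p = 0.000202). Proteasome subunit genes rose in 15 of 31 cases and fell in 0, with a small median of 0.35. That count was 6 without 7 d replicate 2 or the Adipoq-rich libraries, 7 without 7 d replicate 3 and 9 without 28 d replicate 1 or 2. Apoptosis and necroptosis genes fell in 16 of 23 cases and rose in 3. Bcl2, which restrains cell death, rose from 31.7, 32.6 and 32.8 CPM to 61.3, 60.4 and 48.6 CPM. Oxidative stress and ferroptosis genes fell in 10 of 27 cases (37%) and rose in 8 (29.6%), against 24.9% and 22.0% of all tested genes. Cybb, the oxidase of phagocytes, fell 6.11-fold, and Sod2, the mitochondrial superoxide dismutase, rose 3.02-fold.

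Lists for cells that could come with the heart tissue varied in how many members were called, beside 22.0% higher and 24.9% lower among all tested genes. Of 14 adipocyte genes 4 rose (28.6%) and 0 fell, and their summed level ran from 353 to 4149 CPM at 7 d and from 763 to 3381 CPM at 28 d. The members that rose were Dgat2, Plin4, Lpin1 and Cidea, and the Dgat2 call was lost without 7 d replicate 1 or 2. The defining adipocyte markers Adipoq, Plin1, Cidec and Retn did not pass (edgeR adjusted p = 0.962, 0.886, 0.827 and 0.979). Of 15 epicardial and mesothelial genes 1 rose and 1 fell, although the median log2 fold change was 1.47, and without 28 d replicate 3 that median was 0.17. The count of higher members was 0 without 7 d replicate 1 or 2, 5 without 7 d replicate 3, 2 without 28 d replicate 1 or 2 and 6 without the Adipoq-rich libraries, and 0 fell without 7 d replicate 2 or 3. Upk3b did not pass (log2 fold change 2.44 ± 0.96, edgeR adjusted p = 0.0729), and passed without 7 d replicate 3 (log2 fold change 3.55, edgeR adjusted p = 0.0369). It also passed with a replicate block (2.41 and 0.00125) and with all 9 libraries in the fit (2.52 and 0.029), but not by DESeq2 or limma voom. Wt1 did not pass either (log2 fold change 2.05 ± 0.87, edgeR adjusted p = 0.09), and passed without 28 d replicate 1 or 2 (edgeR adjusted p = 0.0462 and 0.0466). With all 9 libraries in the fit it passed too (edgeR adjusted p = 0.0396), but not by DESeq2 or limma voom. Among 11 Schwann cell and neuron genes 2 rose and 2 fell, the latter 4 without 28 d replicate 3. Dbh, the enzyme that makes noradrenaline, stood at 2.05, 2.53 and 1.38 CPM at 7 d and 5.75, 9.07 and 7.48 CPM at 28 d and rose 3.74-fold (log2 fold change 1.90 ± 0.28, edgeR adjusted p = 0.00192), in the direction opposite to Npy. In the atrial list 2 of 9 genes rose and 0 fell, and 4 rose without 28 d replicate 1, 5 without the Adipoq-rich libraries and 6 without 28 d replicate 3. In the skeletal muscle list, part of which heart muscle also expresses, 4 of 10 rose (40%) and 2 fell (20%), with 2 higher when any 7 d library was left out and 1 lower without 7 d replicates 1 or 2 or 28 d replicate 1. Of 5 mast cell genes 1 fell and 0 rose, with 1 higher without 7 d replicate 3, and the single erythroid gene tested did not pass.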

How the data were processed

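Bulk RNA sequencing had been done on heart RNA of 9 mice, 3 each for sham, infarct 7 d and infarct 28 d. The deposited counts are whole reads per gene symbol, not normalized. Per the submitters' processing notes the reads were trimmed with Trim Galore, aligned with STAR to mm10 and counted with featureCounts. Versions, annotation, strand setting and the treatment of multi-mapping reads were not found in those notes. Per the labels' protocols RNA was extracted with TRIzol and libraries were made with the KAPA RNA HyperPrep kit.

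The 6 infarct libraries were fitted alone in edgeR 4.0.16 (R 4.3.3) with TMM scaling, filterByExpr (minimum count 10, total 15) and the quasi-likelihood test. P-values were adjusted by Benjamini-Hochberg over the 14239 genes tested of 24964 symbols, at a threshold of 0.05. Sham libraries were left out of this fit because their spread was far smaller. CPM use the TMM-scaled total of each library. Errors beside log2 fold changes are standard errors. For principal components a prior count of 2 was added before log2 CPM were taken. On simulated counts for 14126 genes, 13926 of them unchanged, the procedure called 55% of genes changed 2-fold and 93% of those changed 4-fold. There were 13 false calls among the 13926 unchanged genes. In the data 46.9% of tested genes were called, so the simulated shares do not measure the sensitivity of this comparison.

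Gene lists (61, with 1274 distinct tested genes) and the genes followed were chosen with earlier results of these data known. Genes were named from a panel of 16, from the 12 largest rises and 12 largest falls with groups that did not overlap (mean log2 CPM 1 or more), and from the called members of each list, up to 4 in the more frequent direction and 2 in the opposite one. Genes with 0 counts throughout 1 group were named up to 3 a direction. Some genes are not reported here. Named outside these rules, after their values were seen, were Adgre1, Adipoq, Atp5g2, Ccr2, Cd163, Cdh5, Cdk1, Clock, Col24a1, Col4a1, Cox6a1, Cry1, Cs, Csf1r, Ctla4, Ctsd, Ctsk, Dbp, Dcn, Egr1, Fap, Fmod, Fos, Gata4, Gja1, Itgam, Jun, Lgals3, Mef2a, Mef2c, Mmp2, Nr1d1, Nr1d2, Per3, Pln, Prelp, Ryr2, Sfrp2, Slc2a4, Tbx20, Tef, Timp1, Tnni1, Top2a, Ttn, Upk3b, Wt1 and Zfpm2. Promoter sequences and gene positions come from RefSeq (GRCm38.p6, the patch release of mm10). Promoters were found for 11089 tested genes. Alternatives were DESeq2 1.42.0, limma 3.58.1 (voom), other scalings and filters, all 9 libraries in the fit, a replicate block, leaving out each library, and omitting the 3 Adipoq-rich libraries (Adipoq above 100 CPM).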

Additional observations from a re-analysis of the deposited data

How the results depend on the processing

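All alternatives kept the counts of genes higher and lower at 28 d within 1.5 times of 3131 and 3550. DESeq2 gave 3452 and 3374, limma voom 3100 and 3537, DESeq2-type size factors 3349 and 3313, library size alone 2882 and 3573, no filter 2956 and 3448, the stricter filter 3087 and 3203, and all 9 libraries 4173 and 3747. With each library left out in turn the counts ran from 2330 to 3463 higher and from 2714 to 3910 lower, and without the 3 Adipoq-rich libraries they were 2227 and 2492. The share of calls that were higher ran from 44.65% to 52.69%. Same-numbered mice of the infarct groups did not pair: their deviations correlated at -0.089, 0.264 and 0.314, and 28 d libraries 1, 2 and 3 matched 7 d libraries 3, 1 and 3 best. The replicate block gave 3046 higher and 3419 lower. Of 343 genes followed, 331 were called in the main fit, and the naming rules favoured large changes. Their stability therefore does not stand for that of all tested genes. Of the 343, 285 kept their direction and side of the threshold under every alternative. Over 5138 pairs of gene and alternative 4941 kept both, 168 lost the call, 27 gained it and 2 reversed. The reversals were Pecam1, at 0.23, and Timd4, a resident macrophage marker, at -0.25, both without the Adipoq-rich libraries, and the cause was not tested. Depth limits genes of a few counts. At 3 mice a time 55% of 2-fold changes were called in a simulation where far fewer genes changed than were called in the data.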

Other observations

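Among genes without a count at 1 of the times, the 3 with the highest total in each direction were looked at. Of these 6 genes, 4 rested mostly on a single library. Sfrp5, a secreted Wnt antagonist, had 0 counts in the 7 d libraries and 1, 0 and 36 counts at 28 d. Ugt8a, an enzyme of myelin lipid synthesis, had 1, 0 and 35 counts at 28 d, and Pmp2, a peripheral myelin protein, 0, 0 and 30, both with 0 at 7 d. Nearly all counts of these 3 genes came from 28 d replicate 3. In the other direction Mpo, myeloperoxidase of neutrophils, had 4, 3 and 77 counts at 7 d and 0 at 28 d. The other two were counted in all 3 libraries of 7 d and at 0 at 28 d, Gm14461 with 7, 17 and 26 counts and Myoz3, a muscle Z-disc protein, with 11, 15 and 9.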
